A study of Homo sapiens with 6 samples.

Results

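Keratins are the intermediate filament proteins of epithelial cells. Each filament is built from obligate heterodimers of 1 acidic type I keratin and 1 basic to neutral type II keratin, so the mRNA levels of the 2 types are usually read together. KRT8 and KRT18 are the pair of simple, single-layered epithelia, KRT7 and KRT19 are typical of glandular and ductal epithelia and are diagnostic markers of lung adenocarcinoma, KRT5 and KRT15 belong to basal cells, and KRT6A and KRT17 are induced in wounded and stressed epidermis. The 10 keratin genes described here are the rows of the expression table that carry the symbols KRT5, KRT6A, KRT7, KRT8, KRT80 and KRT81 (type II) and KRT15, KRT17, KRT18 and KRT19 (type I), out of 27216 rows in the table and out of 55 rows with a keratin symbol.

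The RNA came from H1975, an established lung adenocarcinoma line (NSCLC) with mutant EGFR, genotype otherwise given as WT. The cells are given as grown in DMEM with 10% serum, while the authors' methods name another medium. The 3 parental samples were taken at 0 h of osimertinib (Osi, an inhibitor of the mutant EGFR kinase), and the 3 adapted samples after 72 h of Osi at 1000 nM, when apoptotic cells had been washed off and only the remaining cells were lysed. Per the labels, all 6 RNA samples were incubated before library preparation with RNase R, an exonuclease that digests linear RNA. The authors' methods do not mention this step. Their list of compounds gives Osi at a lower concentration, while their text gives 1000 nM for other assays. The table names the parental columns for DMSO, the sample labels give 0 h of Osi, and time in culture therefore cannot be told apart from Osi. The authors state in general that data came from independent experiments with technical replicates, but not whether these samples were separate cultures. The p-values therefore measure only the spread between these samples. All values are from a single cell line and from bulk RNA, in which fewer cells of a type and less RNA per cell cannot be told apart.

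Values are log2(FPKM + 1), where FPKM, a read count scaled to gene length and library depth, was inferred from the values. Summed over all rows, FPKM came to 375342 to 387753 per sample, and replicates correlated at 0.997 in parental and at 0.991 to 0.996 in adapted cells, across genes. Read depth is not known. A row was tested with limma where its mean over the 6 samples was at least 1, and a change was called at a Benjamini-Hochberg adjusted p under 0.05. Of 12656 rows tested, 56.9% were called, 30.7% higher and 26.2% lower in adapted cells, and in 66.3% the parental and adapted samples did not overlap. The epithelial markers EPCAM and CDH1 were between 7.08 and 7.66 on the log2 scale in every sample and did not pass the test, nor did MUC1, and the summed FPKM of 7 epithelial and lung markers was 563 to 572 in parental and 458 to 585 in adapted samples. Of the leukocyte markers CD3E was listed at 0 in every sample and PTPRC did not exceed 0.08 on the log2 scale, while CD68 fell by 1.85 (SE 0.22, limma adjusted p = 3.63e-04). Of the fibroblast markers COL1A1 rose by 1.12 on the log2 scale (SE 0.09, limma adjusted p = 7.80e-05), and LUM, below the filter, went from a mean of 0.0376 to 0.531 FPKM without overlap, whereas COL1A2, DCN and PDGFRB were at or near 0. In summed FPKM, the 3 leukocyte markers came to 73.7 to 76.3 in parental and 14.6 to 29.6 in adapted samples, nearly all of it CD68. The 5 fibroblast markers came to 3.04 to 3.16 and 7.65 to 9.21. The 3 endothelial markers, in which CDH5 was higher and PECAM1 lower in adapted cells, came to 1.13 to 1.86 and 1.42 to 3.47. The samples were of a single cell line, so these sums are levels of marker genes and not counts of other cell types. Their relation to the keratin values was not tested.

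The genes lie in the 2 keratin clusters of the genome (GRCh38, GENCODE v29). From low to high coordinate on chromosome 12 stand KRT80 (52168996 to 52192000, minus strand), KRT7 (52232520 to 52252186, plus), KRT81 (52285913 to 52291534, minus), KRT6A (52487174 to 52493257, minus), KRT5 (52514575 to 52520687, minus), KRT8 (52897187 to 52949954, minus) and KRT18 (52948871 to 52952901, plus), the only type I keratin in this cluster. On chromosome 17 stand KRT15 (41513743 to 41522529), KRT19 (41523617 to 41528308) and KRT17 (41619441 to 41624842), all on the minus strand. The annotated bodies of KRT8 and KRT18 overlap head to head, KRT81 lies within KRT86 on the opposite strand, and KRT7 overlaps KRT7-AS and KRT87P on the opposite strand and the annotated start of KRT86 on its own strand. Whether reads were counted by strand is not stated, so reads from these overlaps cannot be assigned to either partner here.

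Some keratin genes are also close copies of each other, and sequence sets how well their reads can be told apart. The stretch below is coding sequence of exon 6 in 5 type I genes of chromosome 17, and it is shown because KRT17, KRT16 and KRT14 were higher in adapted cells while KRT15 and KRT19, which lie in the same cluster, were lower. Capitals mark bases that differ from KRT17.
KRT17: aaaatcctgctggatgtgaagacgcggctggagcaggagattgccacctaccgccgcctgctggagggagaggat
KRT16: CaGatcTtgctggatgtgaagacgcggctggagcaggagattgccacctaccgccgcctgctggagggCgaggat
KRT14: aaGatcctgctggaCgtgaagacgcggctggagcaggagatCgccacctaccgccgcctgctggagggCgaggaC
KRT15: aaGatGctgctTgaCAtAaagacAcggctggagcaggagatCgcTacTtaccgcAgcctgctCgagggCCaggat
KRT19: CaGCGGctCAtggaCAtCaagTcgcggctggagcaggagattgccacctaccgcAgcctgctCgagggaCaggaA
The stretches lie at chr17:41620664-41620738 (KRT17), chr17:41610336-41610410 (KRT16), chr17:41583240-41583314 (KRT14), chr17:41515477-41515551 (KRT15) and chr17:41523782-41523856 (KRT19), all on the minus strand. Of 75 bases, KRT16 differs from KRT17 at 4, KRT14 at 5, KRT15 at 14 and KRT19 at 15. Over whole coding sequences, and not only the stretch printed, the longest exact run shared with KRT17 was 61 bases for KRT16, 59 for KRT14, 47 for KRT15 and 38 for KRT19. Of all 50-base windows of the KRT17 coding sequence, 17.2% had an exact copy in a transcript of another gene, most often the pseudogene KRT17P3. The share was 1.25% for KRT7, 1.22% for KRT80, 1.29% for KRT15 and 2.09% for KRT19, the lowest of the 10. It was 45.6% for KRT8 and 38.8% for KRT18, mostly in processed pseudogenes, 52.8% for KRT6A (with KRT6C) and 57.2% for KRT81 (with KRT86). The counting of shared reads is not stated, so these shares do not give the size of an error in the values. KRT6C was listed at 0 in every sample, and KRT6B did not exceed 0.0676 FPKM.

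The summed level of the keratins differed between the groups by less than the spread of the adapted samples, while the make-up of the sum differed by far more than its spread. The 10 keratins summed to 3389, 3432 and 3423 FPKM in the parental samples and to 3295, 3551 and 3458 FPKM in the adapted samples, which overlap. The means were 3414 ± 22.3 and 3435 ± 130 (SD, n = 3), 0.892% and 0.903% of all FPKM. Within this sum the type II keratins went from 1616 ± 14.4 to 2281 ± 125 FPKM, and the type I keratins went from 1798 ± 7.91 to 1154 ± 43.8 FPKM (no test, since a sum over chosen genes is a description).

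Type II keratins held 47.2%, 47.4% and 47.4% of the sum in parental cells and 64.8%, 66.4% and 68.0% in adapted cells, with no overlap. The type II to type I ratio was accordingly 0.894 to 0.902 in parental and 1.84 to 2.12 in adapted samples, a mean difference of 1.14 on the log2 scale. The largest share differences were those of KRT7, KRT19 and KRT18. KRT7 made up 19.6%, 19.6% and 19.7% of the sum in parental and 36.3%, 42.8% and 44.8% in adapted cells. KRT19 went from 27.4% ± 0.186 to 16.2% ± 1.23 and KRT18 from 25.0% ± 0.123 to 16.9% ± 2.95, while KRT8 went from 26.5% ± 0.127 to 21.8% ± 3.56 (SD, n = 3). KRT8 held 26.0% in adapted replicate 1, close to the parental 26.3% to 26.6%, and 19.9% and 19.6% in the other two. Together KRT7, KRT8, KRT18 and KRT19 made up 98.5% of the sum in parental and 96.2% in adapted cells.

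**Figure D1:**
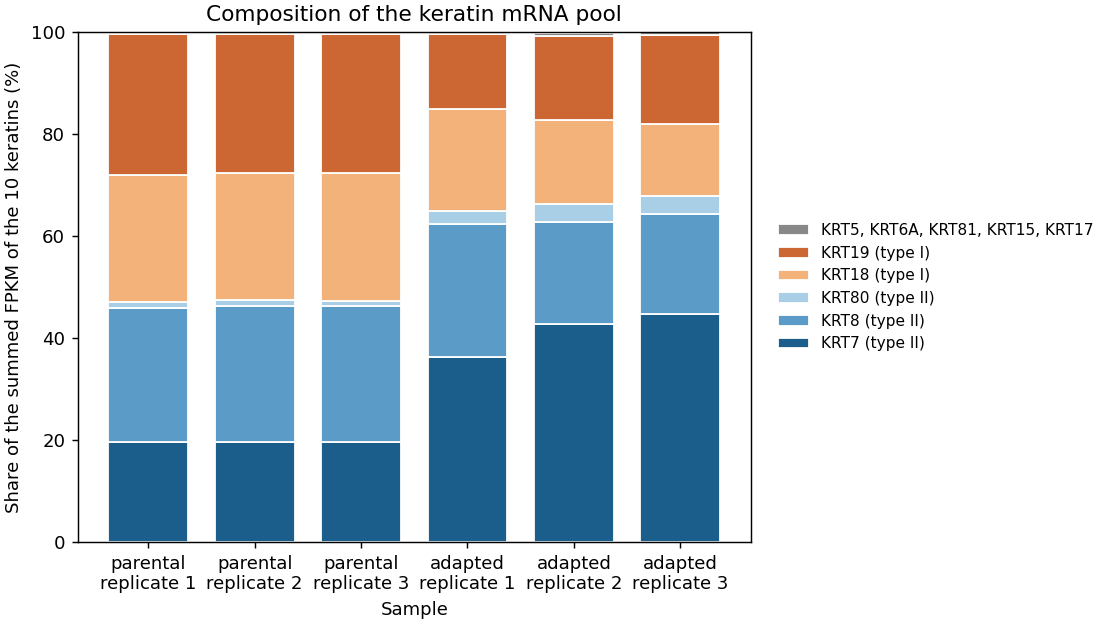
Stacked bars give the share of the summed FPKM of the 10 keratins (y axis, %) in each of the 6 samples, type II keratins in blue and type I in orange, with 5 keratins of low level in grey. The type II share is 47.2% to 47.4% in the parental and 64.8% to 68.0% in the adapted samples.

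Of the 10 keratins, 7 passed the filter on low values, and all 7 were called, 3 higher (KRT7, KRT80, KRT17) and 4 lower (KRT8, KRT18, KRT19, KRT15), with no overlap between the groups, beside 56.9% of all tested rows called and 66.3% without overlap. KRT17 passed the filter only through its adapted values. KRT6A, KRT81 and KRT5 did not pass it. Without the filter, where 36.6% of 23902 rows were called, all 10 could be fitted: 3 were higher, 4 were lower, with KRT6A now among them and KRT8 no longer, and 3 did not pass. The median log2 fold change of the 7 was -0.28, beside 0.03 over all rows tested. An exact two-sided permutation test of 3 against 3 samples cannot go below p = 0.1, which is the value of each of the 7 genes, so every call rests on limma's pooled spread.

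Among the type II keratins, KRT7, the partner of KRT19 in glandular epithelium, read 665, 671 and 675 FPKM in parental and 1196, 1519 and 1551 FPKM in adapted samples. All adapted samples lay above all parental ones, and adapted replicate 1 was the lowest of the 3. The mean ratio was 2.12, and the log2 fold change was 1.07 (SE 0.11, 95% interval 0.81 to 1.34, limma adjusted p = 2.19e-04). A larger absolute change was seen in 9.17% of all rows tested.

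KRT80, a type II keratin that is found in many epithelia and lies next to KRT7 in the cluster, read 39.8, 40.8 and 37.5 FPKM in parental and 84.5, 129 and 120 FPKM in adapted samples. The groups did not overlap and replicate 1 was again the lowest of the adapted samples. KRT80 rose 2.82-fold in FPKM and by 1.45 on the log2 scale (SE 0.15, limma adjusted p = 1.91e-04).

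KRT8, the type II keratin of simple epithelia, read 893, 913 and 907 FPKM in parental and 855, 708 and 679 FPKM in adapted samples. The groups did not overlap, but adapted replicate 1 came close to the parental level. The log2 fold change was -0.28 (SE 0.10, 95% interval -0.52 to -0.04), just past the threshold (limma adjusted p = 0.0477), and 53.5% of all rows tested changed by more. The call was lost under 8 of 16 alternative settings, among them quantile normalization (-0.15, limma adjusted p = 0.155) and no filter (-0.28, limma adjusted p = 0.119), and without any 1 of the samples other than adapted replicate 1.

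KRT6A, the wound-induced type II keratin, was low to begin with, at 1.29, 1.66 and 1.70 FPKM in parental samples, and read 0.169, 0.180 and 0.165 FPKM in adapted samples. Every adapted sample was lower than every parental one, 9.07-fold in the means. In the fit without a filter its log2 fold change of FPKM + 1 was -1.12 (SE 0.08, limma adjusted p = 2.99e-04). The added 1 shrinks a change at such low levels, so this value is smaller than the ratio of means. KRT81, a hair keratin, read 0.184 to 0.282 FPKM in parental and 0.214 to 0.436 FPKM in adapted samples, which overlap. KRT5, the basal type II keratin, did not exceed 0.0557 FPKM in any sample and was listed at 0 in parental replicate 2 and adapted replicate 2.

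Of the type I keratins, KRT19, the smallest keratin, was the most abundant keratin of the parental cells and read 935, 940 and 932 FPKM there, against 489, 583 and 597 FPKM in adapted samples. The groups stood far apart beside their spread. The mean ratio was 0.595, and KRT19 fell by 0.75 on the log2 scale (SE 0.09, limma adjusted p = 4.74e-04). Here adapted replicate 1 was the sample farthest from the parental level.

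KRT18, the type I partner of KRT8, read 846, 853 and 859 FPKM in parental and 660, 587 and 489 FPKM in adapted samples, without overlap. It fell by 0.57 on the log2 scale (SE 0.11, 95% interval -0.84 to -0.30, limma adjusted p = 0.00427), to 0.679 of the parental mean. KRT15, a type I keratin of basal cells that lies beside KRT19, read 8.32, 10.7 and 10.0 FPKM in parental and 3.28, 3.47 and 4.48 FPKM in adapted samples. All adapted values were lower, and the mean FPKM was 2.59-fold lower (log2 fold change -1.17, SE 0.12, limma adjusted p = 2.26e-04).

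KRT17, the type I keratin of wounded and stressed epithelium, was near 0 in parental samples, at 0.222, 0.423 and 0.246 FPKM, and read 6.66, 20.8 and 16.7 FPKM in adapted samples. It showed the largest change of the 10, with no overlap and with adapted replicate 1 well below the other two. The log2 fold change was 3.47 (SE 0.35, 95% interval 2.64 to 4.30, limma adjusted p = 1.81e-04) and 3.92 without adapted replicate 1 (limma adjusted p = 4.62e-07). The ratio of mean FPKM was 49.5, but its denominator of 0.297 FPKM is small, and with a pseudocount of 0.1 in place of 1 the log2 fold change was 5.10.

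These shifts changed the order of the keratins. In parental samples it ran KRT19, KRT8, KRT18, KRT7, KRT80, KRT15, KRT6A, KRT17, KRT81 and KRT5, in FPKM, and the only neighbours whose ranges overlapped were KRT17 and KRT81. In adapted samples it ran KRT7, KRT8, KRT18, KRT19, KRT80, KRT17, KRT15, KRT81, KRT6A and KRT5, and only KRT18 and KRT19 overlapped. KRT7 thus went from the fourth to the first place, and KRT17 passed KRT15 and KRT6A.

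Ratios within a sample do not depend on a scaling factor applied to the whole sample. Whether RNase R treatment affected levels compared between genes, as in these ratios and the shares and order above, or between samples, was not tested. KRT7 over KRT19 was 0.711, 0.714 and 0.724 in parental and 2.44, 2.60 and 2.60 in adapted samples, so KRT19 was the higher of the pair in every parental sample and KRT7 in every adapted one. The log2 ratio was -0.48 ± 0.01 and 1.35 ± 0.05 (SD, n = 3), a difference of 1.83. KRT8 over KRT18 was 1.06, 1.07 and 1.06 in parental and 1.30, 1.21 and 1.39 in adapted samples, a smaller difference of 0.29 on the log2 scale, also without overlap. KRT6A over KRT17 was 3.93 to 6.93 in parental and 0.00868 to 0.0253 in adapted samples, so the order of these stress keratins was exchanged. The size of these ratios is uncertain, since KRT17 in parental samples (0.222 to 0.423 FPKM) and KRT6A in adapted samples (0.165 to 0.18 FPKM) were near 0. No ratio of KRT5 over KRT15 is given because KRT5 was listed at 0 in 2 samples.

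In the rest of the keratin family, 45 further rows, 20 were listed at 0 in every sample and 4 passed the filter. Of these 4, KRT4 and KRT16 rose and KRT10 and KRT86 did not pass the test, beside 56.9% of all rows called. KRT4, a type II keratin of mucosal stratified epithelium, read 2.37, 2.20 and 2.16 FPKM in parental and 6.40, 28.0 and 28.6 FPKM in adapted samples. It rose by 2.51 on the log2 scale (SE 0.49, limma adjusted p = 0.00398), and by 3.18 without adapted replicate 1, which lay well below the other adapted samples. KRT16, a type I keratin of wounded epidermis next to KRT17, read 0.542, 0.791 and 0.595 FPKM in parental and 1.59, 9.53 and 6.43 FPKM in adapted samples (log2 fold change 1.84, SE 0.46, limma adjusted p = 0.0113). With a pseudocount of 0.1 in place of 1 its log2 fold change was 2.69. Like KRT17 it passed the filter only through its adapted values (mean 2.56 on the log2 scale, against 0.71 in parental cells). KRT10, a type I keratin of differentiated epidermis, differed by 0.48 (SE 0.38, limma adjusted p = 0.307), with 4.61 in adapted replicate 1 and 3.39 and 3.02 in the other two on the log2 scale. KRT86, a hair keratin, passed the filter only through its adapted values (mean 1.16 on the log2 scale, against 0.93 in parental cells). It differed by 0.23 (SE 0.12, limma adjusted p = 0.125), and was called without adapted replicate 1 (0.34, limma adjusted p = 0.0129). Without that replicate KRT10 differed by 0.01.

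Below the filter, the fit without one called 3 more of these rows, named after their values were seen, beside 36.6% of all rows called in that fit. KRT14, the basal type I keratin next to KRT16, read 0.0522, 0 and 0.0639 FPKM in parental and 1.01, 2.79 and 1.31 FPKM in adapted samples, a log2 difference of 1.33 (limma adjusted p = 0.00625). KRT20, a type I keratin of intestinal epithelium, read 1.16, 0.913 and 1.26 FPKM in parental and 0.0596, 0.217 and 0.330 FPKM in adapted samples, a difference of -0.81 (limma adjusted p = 0.00223). KRT34, a hair keratin, did not exceed 0.202 FPKM in any sample (difference 0.23, limma adjusted p = 0.00189). KRT14, KRT16 and KRT17 stand side by side in the cluster, and all 3 were higher in every adapted sample. Their sequences are close, as printed above, and whether reads of 1 gene were counted for another was not tested. Of KRT14 windows of 50 bases, 24.6% had an exact copy elsewhere, and of KRT16 windows 23.9%.

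**Figure D2:**
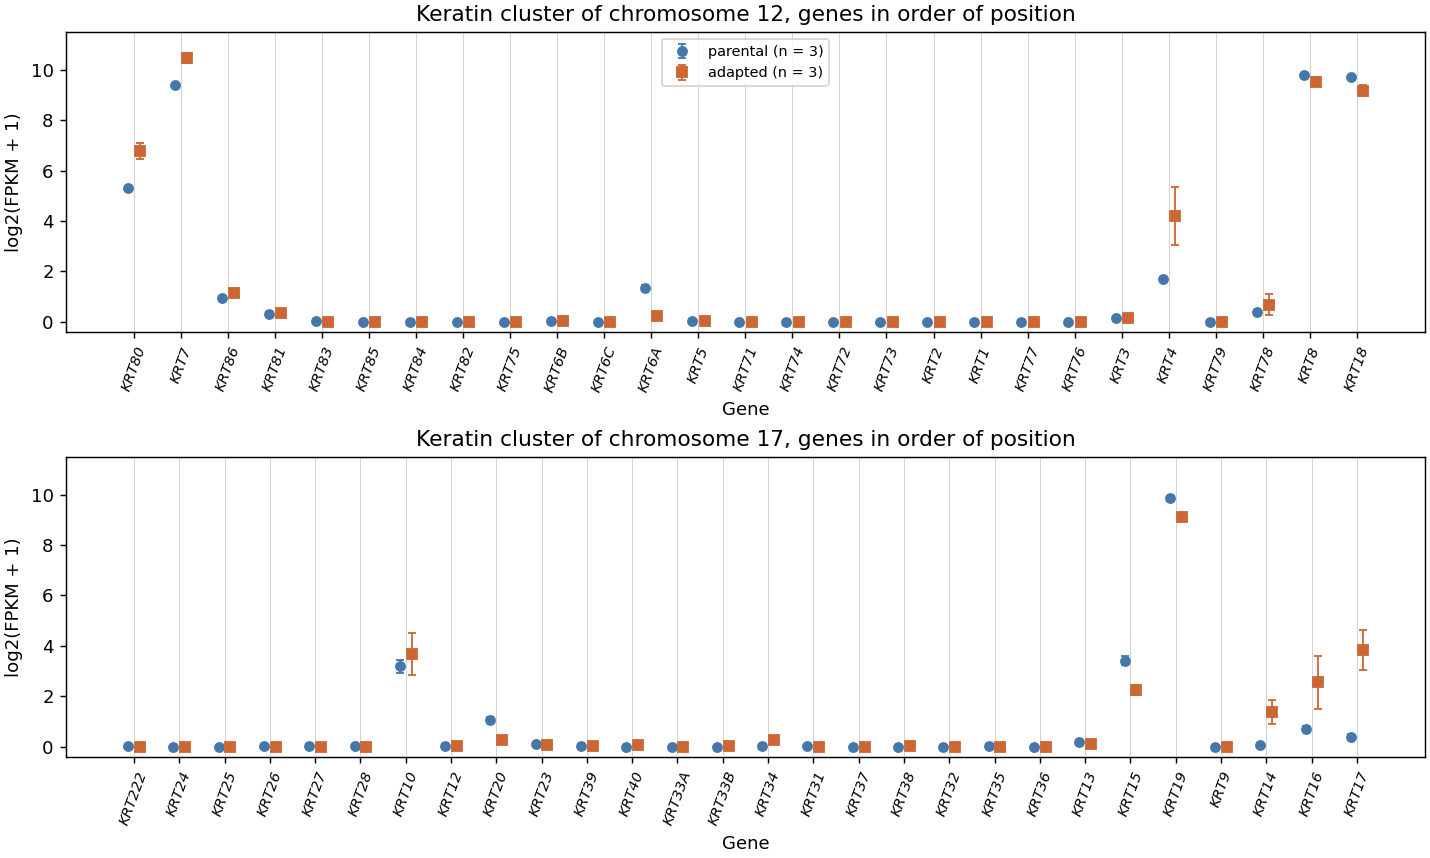
Points give the mean log2(FPKM + 1) of parental (blue) and adapted (orange) samples, with SD bars (n = 3), for every keratin gene of the clusters on chromosome 12 and chromosome 17, in order of position and not to genomic scale. High levels stand at the ends of the chromosome 12 cluster (KRT80 and KRT7, KRT8 and KRT18), and KRT14, KRT16 and KRT17 are higher in adapted cells at the end of the chromosome 17 cluster.

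Adapted replicate 1 was the adapted sample nearest to the parental level for 8 of the 11 keratins that passed the filter. The exceptions were KRT19, KRT15 and KRT10. The same share over all rows was not counted. Without adapted replicate 1, 8370 rows were called, against 7202 with all 6 samples, while leaving out each other sample gave 5763 to 6651.

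Other cytoplasmic and nuclear intermediate filaments were set beside the keratins. Of 15 listed, 6 passed the filter, 2 rose, 3 fell and 1 did not pass the test, a share of 83.3% called beside 56.9% of all rows, with a median log2 fold change of -0.07. VIM, the type III filament of mesenchymal cells, read 3.18, 3.12 and 3.03 in parental and 7.62, 6.74 and 6.84 in adapted samples on the log2 scale, a rise of 3.95 (SE 0.21, limma adjusted p = 1.25e-05). In FPKM, VIM still amounted to only 4.06% ± 1.61 of the 10 keratins in adapted cells, against 0.224% ± 0.0137 in parental cells. VIM was highest in adapted replicate 1. In that replicate KRT7, KRT80, KRT17, KRT19, KRT15, KRT4, KRT16 and KRT86 were the lowest of the adapted samples. KRT8, KRT18 and KRT10 were the highest there, and a relation to VIM was not tested. SYNM, which co-assembles with vimentin, rose by 0.52. The nuclear lamins fell, LMNB1 by 1.28 (limma adjusted p = 1.76e-04), LMNA by 0.64 and LMNB2 by 0.32. The call of LMNB2 was lost in 5 of 16 alternatives.

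Several plakins tie keratin filaments to junctions, and 7 plakins were listed. All 7 passed the filter, 3 rose and 4 did not pass the test, a share of 42.9% called beside 56.9% of all rows, with a median of 0.24. DST, whose epithelial isoform anchors keratins at hemidesmosomes, read 4.65, 4.62 and 4.58 in parental and 5.42, 5.64 and 5.50 in adapted samples (rise of 0.90, SE 0.07, limma adjusted p = 5.99e-05). PLEC, a general cytolinker, rose by 0.27 (SE 0.06, limma adjusted p = 0.00554). EPPK1, which binds and bundles keratin filaments, rose by 1.15 (SE 0.17, limma adjusted p = 0.00112), and by 1.91 with a pseudocount of 0.1. It was low, with a mean of 0.67 in parental and 1.82 in adapted samples, and passed the filter only through the adapted ones.

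Of 12 desmosome genes, 7 passed the filter, 1 rose, 2 fell and 4 did not pass the test, a share of 42.9% called beside 56.9% of all rows, with a median of 0.05. DSC3, a desmosomal cadherin of basal layers, rose by 1.46 (SE 0.16, limma adjusted p = 2.36e-04). It passed the filter only through its adapted values, with a mean of 0.93 in parental and 2.39 in adapted samples. DSG2, the desmosomal cadherin of simple epithelia, fell by 0.42, and the armadillo protein PKP3 fell by 0.41.

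The 4 hemidesmosome genes were all called, 2 in each direction, beside 56.9% of all rows. CD151, a tetraspanin partner of the laminin-binding integrin, rose by 0.79 (SE 0.10, limma adjusted p = 6.17e-04), and both integrin chains fell, ITGA6 by 0.56 (limma adjusted p = 0.0171) and ITGB4 by 0.51 (limma adjusted p = 8.61e-04). COL17A1 read 4.85, 4.89 and 4.78 in parental and 4.95, 6.29 and 6.17 in adapted samples, so that replicate 1 was nearly at the parental level. Its rise of 0.96 (SE 0.32, limma adjusted p = 0.037) was lost in 6 of 16 alternatives, and that of ITGA6 in 4 of 16. The median of the 4 was 0.14.

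**Figure D3:**
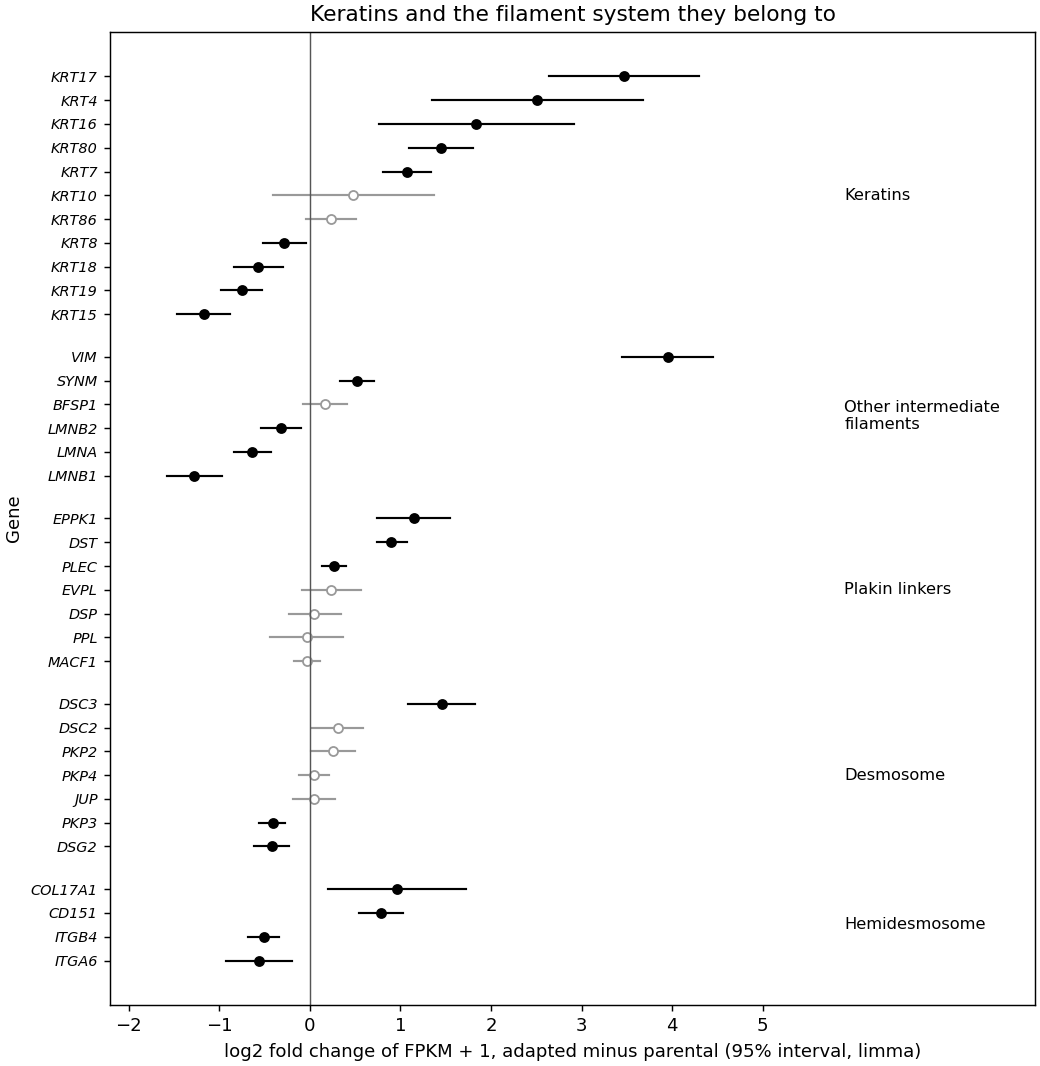
Points give the log2 fold change of FPKM + 1 (x axis, adapted minus parental) with its 95% interval from limma for the keratins and 4 groups of filament and junction genes that passed the filter; filled points were called and open points were not. KRT17 and VIM lie farthest to the right, and KRT15 and LMNB1 farthest to the left.

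Of 4 genes that organise keratin filaments, SFN, the 14-3-3 protein that binds phosphorylated keratins, fell by 0.65 (SE 0.08, limma adjusted p = 4.06e-04). CSNK1A1, a kinase recruited to keratin filaments, fell by 0.21 (limma adjusted p = 0.0434), a call that was lost in 9 of 16 alternatives. The other two did not pass the test, beside 56.9% of all rows called, and the median was -0.14.

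Transcription factors of epithelial genes went in both directions. Of 15, 13 passed the filter, 4 rose, 7 fell and 2 did not pass the test, a share of 84.6% called beside 56.9% of all rows, with a median of -0.27. CEBPA, among the 7 that fell, passed the filter only through its parental values (mean 1.48, against 0.71 in adapted samples). GRHL3 and GRHL2, the grainyhead-like factors of epithelial barrier genes, rose by 1.60 (SE 0.24, limma adjusted p = 0.0012) and 0.72 (SE 0.16, limma adjusted p = 0.00671). GRHL3 passed the filter only through its adapted values, with a mean of 0.56 in parental and 2.16 in adapted samples, and rose by 2.63 with a pseudocount of 0.1. OVOL2 rose by 0.67, a call lost in 6 of 16 alternatives. CEBPB fell by 1.64 (SE 0.08, limma adjusted p = 1.07e-05), KLF4 by 0.98 (limma adjusted p = 6.62e-05) and OVOL1 by 0.97 (limma adjusted p = 7.03e-05). TP63, the factor of basal cells, in which KRT5 and KRT14 are typical, fell by 0.96 (SE 0.24, limma adjusted p = 0.0115), by 1.55 with a pseudocount of 0.1, and was lowest in adapted replicate 1. It was named after its values were seen. KRT14 was thus higher, and KRT15 and TP63 were lower, in the same adapted samples.

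Across the 6 filament, junction and regulator lists, 41 of 57 genes passed the filter, of which 12 rose, 16 fell and 13 did not pass the test, a share of 68.3% called beside 56.9% of all rows. Among the lung markers, NKX2-1, the lineage factor of lung adenocarcinoma, rose by 0.47 (SE 0.12, limma adjusted p = 0.0117), and NAPSA, an aspartic protease of alveolar cells, fell by 0.81 (SE 0.17, limma adjusted p = 0.00474), while SFTPB and SFTPC were at or near 0. Of the endothelial markers PECAM1 read 0.994 to 1.63 FPKM in parental and 0.0531 to 0.0756 FPKM in adapted samples, and all 3 endothelial markers were below the filter.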

How the data were processed

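RNA-sequencing values of 3 parental and 3 adapted H1975 samples were used. The authors deposited 1 table of log2 values with 27216 rows; the scale, log2(FPKM + 1), was read from the values, since back-transformed values have 6 decimals in 27069 rows and sum to no fixed total. Another 147 rows carry an added constant in 1 group, none of them a gene named here. The submitters' processing notes list Bowtie2 2.1.0, STAR, edgeR and hg38 without roles; the quantifier is not given in the sources used here. The authors' methods name DESeq2, which needs counts. Here limma 3.58.1 (R 4.3.3; lmFit, eBayes with a trend) was used, unpaired, on rows with a mean of at least 1, with Benjamini-Hochberg adjustment at 0.05. Depth is unknown, and the replicate spread is the only error.

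On simulated data with 200 of 12656 rows changed, limma recovered 89.5% at a log2 change of 1 (5.29% of calls false) and 42.5% at 0.5 (2.3% false). The simulation gave both groups the same spread and changed few rows, whereas 56.9% of the tested rows were called in the data. Its recovery and false shares therefore do not carry over to the calls above. Sequences and positions were read from GENCODE v29 (GRCh38), and shared sequence was counted in 50-base windows. Same-numbered samples did not deviate together (correlations of -0.05 to -0.02), so numbers were not taken as pairs. The genes and lists were chosen with earlier results of these data known. Named were the 10 keratins, other keratins that passed the filter, up to 3 genes that rose and 3 that fell most per list without overlap, and the cell type markers. Outside this rule, KRT14, KRT20, KRT34 and TP63 were named after their values were seen, and CEBPA, KRT6B and KRT6C to state a limit. Alternatives were a pseudocount of 0.1, no filter or a filter of 3, quantile, equal-sum or median scaling, no trend, a replicate block, subtracted constants, omission of unannotated rows, and leaving out each replicate.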

Additional observations from a re-analysis of the deposited data

How the results depend on the processing

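KRT7, KRT80, KRT17, KRT18, KRT19 and KRT15 kept their direction and call in each of the 15 or 16 alternatives that gave a value, with log2 fold changes of 1.01 to 1.19, 1.34 to 1.64, 3.17 to 5.10, -0.67 to -0.45, -0.81 to -0.63 and -1.35 to -1.10. KRT8 kept its direction (-0.38 to -0.15) but was not called without the filter (-0.28), with quantile normalization (-0.15), with the replicate block (-0.28, limma adjusted p = 0.0828) or in 5 of the 6 fits that leave out 1 replicate (-0.29 to -0.22); the cause was not tested. The range over all 6 was -0.38 to -0.22, and -0.38 is the fit without adapted replicate 1, in which KRT8 was called. Leaving out 1 replicate gave 6 to 7 called keratins of the 10, 2 to 3 other keratins, 22 to 33 genes of the filament, junction and regulator lists (28 with all samples) and 5763 to 8370 rows in all. A filter at a mean of 3 left 7693 rows, of which 4532 were called, and 1 other keratin, of which 0 were called, because fewer rows were tested; KRT10 is then the only other keratin tested. Without the filter 5 of 25 other keratins were called, beside 36.6% of all rows. The replicate block called 6761 rows and changed the call of no keratin but KRT8; every sample shares only a number with its counterpart. Without adapted replicate 1, the share of KRT7 in the keratin sum differed by 24.2 percentage points, and over all such omissions by 19.9 to 24.2; that of KRT8 differed by -6.69 to -3.53, of KRT18 by -9.63 to -6.70, of KRT19 by -11.8 to -10.6, and the log2 ratio of type II over type I by 1.09 to 1.19. The alternatives for genes outside the 10 were chosen after seeing the data; a pseudocount of 0.1 moved GRHL3 to 2.63, EPPK1 to 1.91 and TP63 to -1.55, with their calls kept. No direction reversed among the results computed. Without counts, nothing can be said about counting error, for low rows such as KRT5, KRT81, KRT14 and KRT34, the parental values of KRT17 and the adapted values of KRT6A included.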
